A study of Mus musculus with 6 samples.

Results

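Replication-dependent histone genes were examined as a family of 67 protein-coding genes, chosen because their GENCODE M21 symbol begins with Hist1h, Hist2h, Hist3h or Hist4h, out of 54532 genes in the deposited tables. By histone type they comprised 6 H1, 18 H2A, 18 H2B, 12 H3 and 13 H4 genes. RNA had been sequenced from mouse bone marrow LSK cells, which are negative for lineage markers and positive for Sca-1 and c-Kit, a gate that enriches blood stem cells and early progenitors. The study addressed how a truncating mutation of Phf6, an X-linked gene for a nuclear protein with PHD-type zinc fingers, relates to stem cell self-renewal. The 3 floxed libraries had the genotype Phf6fl-R274X/Y, a conditional allele carried by males without Cre. The 3 Vav1-Cre libraries had the genotype Vav1-Cre; Phf6fl-R274X/Y, in which Cre is driven by regulatory sequence of Vav1, a gene active across blood cells. All 6 libraries therefore carried the conditional allele, and Cre itself cannot be told apart from the mutation it induces. The labels give no ages and do not tie libraries to animals, so a p-value here speaks of the variation among libraries, part or all of which could be technical.

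Replication-dependent histones package newly made DNA, and their genes are transcribed mainly while a cell copies its genome. H2A with H2B and H3 with H4 form the nucleosome core, and H1 binds the DNA that links nucleosomes. Their messenger RNAs usually lack introns and a poly(A) tail and end instead just after a short stem-loop, which the protein SLBP binds and which is needed for 3′ cutting by the U7 particle. Some of these genes can also make polyadenylated transcripts, mainly in cells that are leaving the cycle.

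The stem-loops of genes with high levels or clear changes are shown because the library method may treat RNAs with and without a poly(A) tail differently. Sequences come from the GENCODE M21 transcripts (GRCm38), 5′ to 3′ on the sense strand, with T for U. Capitals mark the 16 bases of stem, loop and stem.
Hist1h1c (H1, chr13:23738808-23740367, plus strand): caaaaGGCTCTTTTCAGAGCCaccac
Hist3h2ba (H2B, chr11:58948920-58949533, plus strand): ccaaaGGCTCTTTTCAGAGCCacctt
Hist1h3c (H3, chr13:23744973-23745602, minus strand): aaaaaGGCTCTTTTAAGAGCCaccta
Hist1h4i (H4, chr13:22040636-22041362, minus strand): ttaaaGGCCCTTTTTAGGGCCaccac
The stem-loop began 24 bases after the stop codon in Hist1h1c and Hist1h3c, 28 in Hist3h2ba and 30 in Hist1h4i. A stem-loop was found in the annotated transcripts of 45 of the 67 genes, in 8 different sequences. The commonest, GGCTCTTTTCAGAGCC, occurred in 25 genes, none of them H4. The H4 genes had sequences of their own, led by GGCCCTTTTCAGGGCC in 7 of the 12 H4 genes with a stem-loop.

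Total counts ranged from 17200917 to 18106065 in floxed and from 15406314 to 16896472 in Vav1-Cre libraries. Levels are given as CPM, read counts relative to library size, scaled by TMM, edgeR's trimmed-mean method of making libraries comparable. As a check of the labels, Phf6 (ENSMUSG00000025626, chrX:52912266-52956943) measured 31.8, 29.6 and 33.5 CPM in floxed and 8.47, 10.3 and 8.29 CPM in Vav1-Cre libraries. It was lower in every Vav1-Cre library, by 3.51-fold (edgeR adjusted p = 6.67e-06). Of the LSK markers, 8 of 12 fell and 2 rose, against 7.89% and 10.1% of all tested genes. Their median log2 fold change was -0.56, while Kit, the gene for c-Kit, and Ly6a, the gene for Sca-1, were both expressed. Kit was at 148 to 173 CPM in floxed and 84.5 to 113 CPM in Vav1-Cre libraries. Kit and Ly6a moved in opposite directions. In fits that each left out 1 library, the log2 fold change (Vav1-Cre over floxed) was -0.84 to -0.62 for Kit. For Ly6a it was 0.76 to 0.85.

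Clustered histone RNA was a small part of every library, and 8 of its genes rose in Vav1-Cre libraries. The family took 0.0396%, 0.0360% and 0.0430% of all counts in floxed and 0.0466%, 0.0440% and 0.0461% in Vav1-Cre libraries. Counts were found for 59 of the 67 genes, and 48 passed edgeR's filter on low counts. Of those 48, 8 rose (Hist1h3c, Hist3h2ba, Hist1h2bm, Hist1h4i, Hist1h1b, Hist1h2bc, Hist1h2bb and Hist3h2a) at an adjusted p under 0.05, against 10.1% of all 14608 tested genes that rose. None fell with edgeR, DESeq2 or limma-voom, and at an unadjusted p under 0.05 with edgeR 14 were higher and 0 lower, while 7.89% of all tested genes fell. The log2 fold change (Vav1-Cre over floxed) was above 0 in 44 of the 48, against 47.8% of all tested genes, and its median was 0.51, against -0.02. Vav1-Cre values lay above all floxed values in 15 of the 48 genes and below them in 0, against 18.9% and 18.3% of all tested genes. Of the 48, 8 were over the filter value in all 3 Vav1-Cre but fewer floxed libraries, and 2 the reverse. Hist1h2bm, which rose, was among those 8. The filter thus favoured positive values, and these counts and the median only describe the tested members. In a fit without the filter, 54 of 59 genes had a value above 0 and 11 rose. Since the tissue was profiled in bulk, a change in the share of a kind of cell and a change in RNA per cell cannot be told apart.

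**Figure D1:**
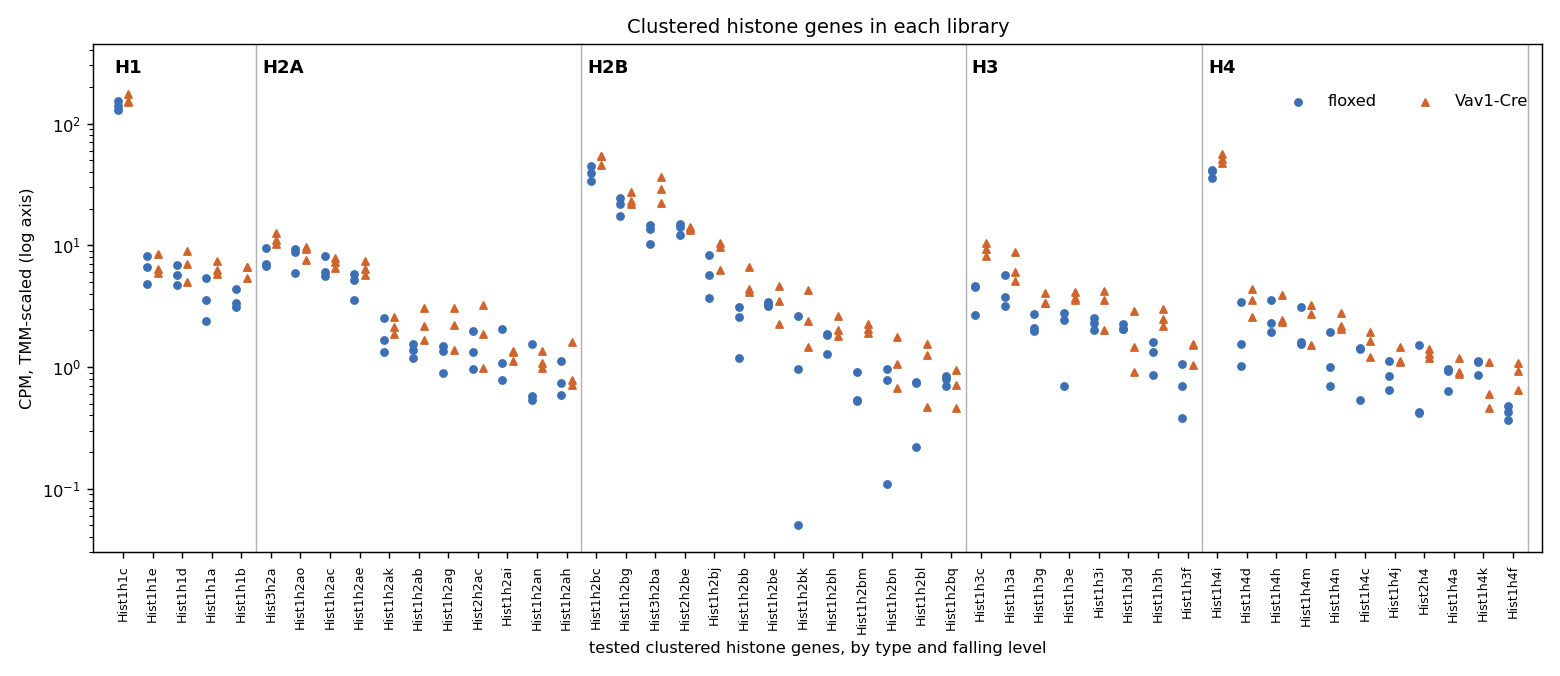
The level of each of the 48 tested clustered histone genes in each library, in TMM-scaled CPM on a log axis, with circles for the 3 floxed and triangles for the 3 Vav1-Cre libraries. Hist1h1c stands above all other members in every library, and most other members lie under 10 CPM.

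Levels were very unequal within the family. Hist1h1c, a linker histone gene, held 35.2% of all clustered histone counts, Hist1h4i and Hist1h2bc 10.6% each, and the remaining genes 43.7% together. On a per-length scale (the authors' FPKM, fragments scaled to exon length and library size), Hist1h1c was highest with a mean of 89.1 ± 8.13 in floxed and 102 ± 9.12 in Vav1-Cre libraries (SD, n = 3). Hist1h4i followed with 53.9 ± 4.54 and 70.8 ± 6.19 FPKM. The next places were taken by Hist1h2bc with 33.7 ± 5.13 and 44.3 ± 4.20 FPKM and Hist1h2bg with 33.9 ± 5.72 and 39.0 ± 4.63 FPKM, a pair whose levels did not differ beyond their spread. Hist3h2ba came next over all libraries, with 20.8 ± 3.92 FPKM in floxed and 47.2 ± 11.3 FPKM in Vav1-Cre libraries.

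The 8 genes at 0 in all libraries were Hist1h4b, Hist1h2ba, Hist1h2aa, Hist2h2aa1, Hist2h2aa2, Hist2h3c1, Hist2h3b and Hist2h2bb. A count of 0 allows up to 3 counts, or 0.166 to 0.195 CPM of the raw totals, by counting error alone. Hist1h2ba and Hist1h2aa encode histones known from the testis. The last 5 of the 8 share every 50-base word of their transcripts with another annotated gene, which can be a gene that overlaps them at the same place. Reads may therefore not have been placed on them uniquely, and the sources used here do not say how such reads were counted. A further 11 genes had 3 to 58 counts in all and were not tested. Hist1h1t, the testis linker histone gene, was one of them, with 3 counts in a single Vav1-Cre library and none elsewhere.

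Linker histone genes gave 1 call among 5 tested. Hist1h1b (ENSMUSG00000058773, chr13:21779883-21780625), a linker histone gene of cycling cells, measured 4.34, 3.38 and 3.12 CPM in floxed and 6.6, 6.61 and 5.42 CPM in Vav1-Cre libraries. The groups did not overlap, and it rose by 0.78 ± 0.22 on the log2 scale (SE; edgeR adjusted p = 0.0292). Hist1h1a had the same log2 difference of 0.78 ± 0.27, also without overlap, and missed the threshold at an adjusted p of 0.0659. Hist1h1c measured 139, 129 and 153 CPM in floxed and 153, 149 and 175 CPM in Vav1-Cre libraries. The lowest Vav1-Cre library lay within the floxed range, and the log2 difference of 0.18 ± 0.09 did not pass (adjusted p = 0.159). Hist1h1e and Hist1h1d gave log2 differences of 0.08 ± 0.23 and 0.28 ± 0.24, both with overlapping groups. The summed level of the type was therefore set by 1 gene: all H1 genes together were 1.16-fold higher with overlapping groups, and without Hist1h1c 1.36-fold higher without overlap.

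H2B genes gave 4 of the 8 calls, among 13 tested. Hist3h2ba (ENSMUSG00000056895) measured 14.7, 10.2 and 13.7 CPM in floxed and 36.2, 28.9 and 22.1 CPM in Vav1-Cre libraries. Every Vav1-Cre library was above every floxed one, with a log2 fold change of 1.18 ± 0.20 (SE; edgeR adjusted p = 0.00537). Hist1h2bm (ENSMUSG00000114279, chr13:21722044-21722567) was a low gene, at 0.53, 0.91 and 0.54 CPM in floxed and 2.26, 1.92 and 2.07 CPM in Vav1-Cre libraries. Its groups were far apart relative to their spread, with a log2 fold change of 1.65 ± 0.39 (adjusted p = 0.0126), from 10 to 17 counts in floxed and 29 to 35 counts in Vav1-Cre libraries. Hist1h2bm passed the filter through the Vav1-Cre libraries, since 2 of its floxed libraries lay under it.

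Hist1h2bb (ENSMUSG00000075031, chr13:23746734-23747241) measured 2.59, 1.18 and 3.12 CPM in floxed and 6.6, 4.17 and 4.41 CPM in Vav1-Cre libraries. The groups did not overlap, and the log2 fold change was 1.14 ± 0.34 (adjusted p = 0.0377). Hist1h2bc (ENSMUSG00000018102, chr13:23684199-23692908) was the most abundant H2B gene, at 39.2, 33.6 and 45.1 CPM in floxed and 54.1, 54.4 and 45.7 CPM in Vav1-Cre libraries. Vav1-Cre replicate 3 was barely above the highest floxed library, and the log2 fold change was 0.39 ± 0.11 (adjusted p = 0.0338). Hist1h2bg, at 17.4 to 24.3 CPM in floxed and 21.8 to 27.4 CPM in Vav1-Cre libraries, overlapped between groups (log2 difference 0.19 ± 0.14, adjusted p = 0.361). Hist2h2be, at 12.2 to 14.9 and 13.4 to 14.2 CPM, gave a log2 difference of 0.01 ± 0.13 and the tightest Vav1-Cre values of the tested members, with a coefficient of variation of 3.11%.

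Promoters of 3 H2B genes that rose and of Hist1h2bg, which did not pass, are shown for comparison. Each is the 120 bases before the RefSeq start (RefSeq, GRCm38.p6), 5′ to 3′ on the gene's own strand. Capitals mark, on either strand, the TATA box letters TATAA, the CCAAT box, the linker histone promoter element AAACACA and the octamer ATTTGCAT, and marks that overlap run together.
Hist3h2ba (chr11:58948791-58948910, plus strand): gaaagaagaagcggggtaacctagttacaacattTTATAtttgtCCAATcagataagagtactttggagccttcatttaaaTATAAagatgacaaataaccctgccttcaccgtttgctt
Hist1h2bm (chr13:21721924-21722043, plus strand): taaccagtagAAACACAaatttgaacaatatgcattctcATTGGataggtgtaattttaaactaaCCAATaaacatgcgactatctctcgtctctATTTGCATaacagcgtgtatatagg
Hist1h2bb (chr13:23746614-23746733, plus strand): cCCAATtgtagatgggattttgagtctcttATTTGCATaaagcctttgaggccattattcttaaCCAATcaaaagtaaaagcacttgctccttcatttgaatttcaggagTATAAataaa
Hist1h2bg (chr13:23571280-23571399, plus strand): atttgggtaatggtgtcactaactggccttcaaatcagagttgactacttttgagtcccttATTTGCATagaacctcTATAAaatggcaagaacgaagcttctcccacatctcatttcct
RefSeq promoters were matched for 62 of the 67 genes and searched over 250 bases before the start. TATAA occurred in 64.5% of them, against 23.5% of all 27025 promoters. CCAAT occurred in 82.3%, against 34.5%, and in each of the matched H1, H2A and H2B promoters but in 25.0% of the H4 promoters. The octamer ATTTGCAT, known as a site for OCT1 in H2B promoters, was in 37.5% of H2B and 38.9% of H2A promoters, in none of the other types, and in 1.61% of all promoters. Back-to-back H2A and H2B genes share much of the searched stretch, so 1 octamer can count for both. Both genes carried it in the pairs Hist1h2ae and Hist1h2bg, Hist1h2ah and Hist1h2bk, and Hist1h2aa and Hist1h2ba. The H2A share is therefore not independent of the H2B share. AAACACA, known from linker histone promoters, was in 83.3% of the H1 promoters and 6.22% of all promoters. Of tested genes with the octamer 3 of 10 rose, and of those without it 4 of 33, with median log2 fold changes of 0.53 and 0.49. With TATAA 5 of 27 rose and without it 2 of 16, with medians of 0.55 and 0.35 and ratios of summed levels of 1.43 and 1.19. With CCAAT 6 of 36 rose and without it 1 of 7, with medians of 0.51 and 0.39. These counts are descriptions and were not tested.

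H3 genes had the highest median of the 5 types, 0.80, and gave 1 call among 8 tested. Hist1h3c (ENSMUSG00000069310) measured 4.66, 2.68 and 4.52 CPM in floxed and 9.38, 10.4 and 8.09 CPM in Vav1-Cre libraries. The groups were well apart, with a log2 fold change of 1.23 ± 0.23 (SE; edgeR adjusted p = 0.00378), the smallest p of the family. Hist1h3g was at 1.96 to 2.75 CPM in floxed and 3.34 to 4.07 CPM in Vav1-Cre libraries, without overlap (log2 difference 0.67 ± 0.27, adjusted p = 0.105). Hist1h3a was at 3.16 to 5.65 and 5.08 to 8.86 CPM, with overlap (0.67 ± 0.27, adjusted p = 0.105). Hist1h3d, at 2.04 to 2.26 CPM in floxed and 0.91 to 2.88 CPM in Vav1-Cre libraries, was the only tested H3 gene with a negative log2 difference, -0.28 ± 0.40.

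H4 and H2A each gave 1 call among 11 tested. Hist1h4i (ENSMUSG00000060639) measured 41.8, 35.9 and 40.8 CPM in floxed and 56.3, 51.5 and 47.0 CPM in Vav1-Cre libraries. The groups did not overlap, and it rose by 0.39 ± 0.10 on the log2 scale, a small change with a small spread (SE; edgeR adjusted p = 0.0157). The other H4 genes were below 5 CPM, among them Hist1h4d with 0.82 ± 0.41 (adjusted p = 0.196) and Hist1h4h with 0.15 ± 0.32 (adjusted p = 0.779). Hist1h4k had the lowest log2 difference of the family, -0.51 ± 0.46, at 0.86 to 1.13 CPM in floxed and 0.46 to 1.1 CPM in Vav1-Cre libraries.

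Hist3h2a (ENSMUSG00000078851, chr11:58954685-58956830), the neighbour of Hist3h2ba, measured 6.78, 7.02 and 9.47 CPM in floxed and 10.3, 11.1 and 12.6 CPM in Vav1-Cre libraries. It rose without overlap by 0.55 ± 0.18 on the log2 scale (SE; edgeR adjusted p = 0.0471), the call nearest to the threshold. Its exons overlap those of Trim17 on the same strand and of a predicted miRNA gene on the other. Hist1h2ao and Hist1h2ac, the next most abundant H2A genes, overlapped between groups, with log2 differences of 0.14 ± 0.20 and 0.12 ± 0.20. In all 18 H2A genes, exons overlapped an annotated gene on the opposite strand, as they did in 1 gene each of H2B, H3 and H4. Since the sources used here do not say whether strand was kept, reads of these partners cannot be told apart from H2A reads, though most of the partners were listed at 0 counts.

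**Figure D2:**
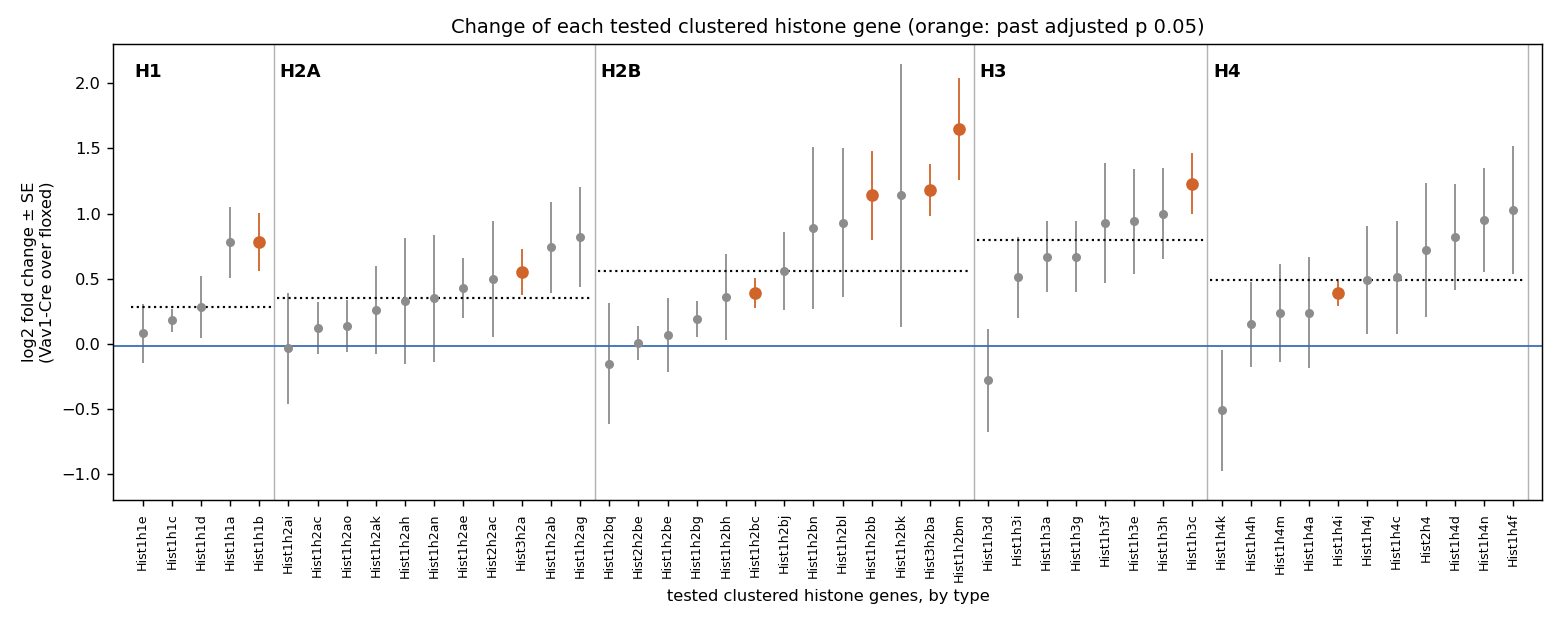
The log2 fold change (Vav1-Cre over floxed) ± SE of each tested clustered histone gene by type, with genes past an adjusted p of 0.05 in orange, dotted lines at the median of each type and a line at the median of all tested genes (-0.02). The medians of all 5 types lie above that line, from 0.28 in H1 to 0.80 in H3.

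Summed by type, the largest ratio was in H3 and the smallest in H1. Summed H3 levels were 19.7, 16.7 and 21.2 CPM in floxed and 35.6, 33.6 and 30.0 CPM in Vav1-Cre libraries, a ratio of 1.72. H2B sums were 105, 92.5 and 116 CPM in floxed and 168, 147 and 126 CPM in Vav1-Cre libraries, a ratio of 1.41. Both types were higher in every Vav1-Cre library than in any floxed one. H4 sums were 46.8 to 58.2 and 65.4 to 77.4 CPM, a ratio of 1.32, and H2A sums were 31.4 to 43.0 and 44.5 to 50.1 CPM, a ratio of 1.29, also without overlap. H1 sums were 144 to 175 and 175 to 205 CPM, and the groups overlapped. Without the highest gene of each type the ratios were 1.56 in H3, 1.47 in H2B, 1.37 in H4, 1.36 in H1 and 1.24 in H2A, and the groups then overlapped in H4 and H2A. Over the whole family the sum was 374 ± 39.3 CPM in floxed and 484 ± 22.4 CPM in Vav1-Cre libraries (SD, n = 3), a ratio of 1.30. These sums carry no p-value, since the genes were grouped with results known.

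**Figure D3:**
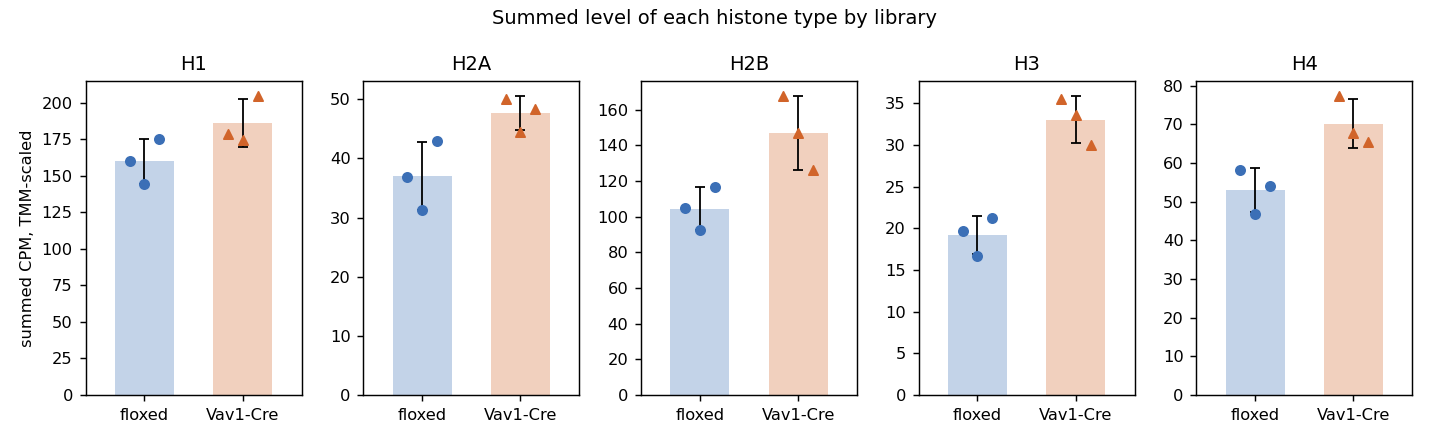
Summed TMM-scaled CPM of all genes of each histone type, with bars for the group mean, error bars for the SD and points for the 3 libraries of each group, on an axis that starts at 0 and differs between panels. The groups overlap for H1 and are apart for H2A, H2B, H3 and H4.

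By position, both genes of the small chromosome 11 group rose, Hist3h2ba and Hist3h2a, and their sum went from 20.6 ± 3.07 to 40.4 ± 5.87 CPM, a ratio of 1.96. The largest group, 29 genes of chromosome 13, had a ratio of 1.23, and the other 2 expressed groups of that chromosome, with 18 and 5 genes, had ratios of 1.39 and 1.36. The 10 genes on chromosome 3, of which 5 were at 0 in all libraries, had a ratio of 1.09 with overlapping groups. They gave no call among 3 tested (edgeR, with 0 at an unadjusted p under 0.05, and none with DESeq2 or limma-voom). Single genes held most of the counts in some groups. Hist3h2ba held 2048 of 2999 on chromosome 11, Hist1h1c 15119 of 29186 in the largest group, and Hist2h2be 1404 of 1711 on chromosome 3. In 12 cases an H2A and an H2B gene lie back to back with 176 to 306 bases between their starts. In the 8 pairs with both genes tested, the H2B gene had the larger log2 fold change in 4.

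Genes were also grouped by how far the annotated transcript goes. In 22 genes the transcript ends within 100 bases of the stem-loop, and in 23 it runs further, as a polyadenylated form would. The poly(A) signal letters AATAAA follow the stem-loop in only some of the 23, and not in Hist1h4i. In the remaining 22 genes no stem-loop was found in the annotated transcript. For 13 of these the annotated transcript ends at the stop codon, so a stem-loop could not have been found. This class therefore does not stand for genes that lack a stem-loop. The first class had a median log2 fold change of 0.74 over 15 tested genes, of which 3 rose, and a summed level of 39.9 ± 7.31 CPM in floxed and 64.3 ± 9.90 CPM in Vav1-Cre libraries. The extended class had a median of 0.39 over 19 tested genes, of which 3 rose, and sums of 261 ± 22.5 and 325 ± 12.6 CPM. The ratios were 1.61 and 1.25, and the extended class held 68.5% of the counts, most of them from Hist1h1c. The class in which no stem-loop was found had a median of 0.37 over 14 tested genes, of which 2 rose, and a ratio of 1.30. Short genes differ from long ones in these libraries in general, which touches the contrast between these classes. The shortest 1 of 10 equal classes of all tested genes (up to 1041 bases of exon) had a median log2 fold change of 0.20 and the longest class -0.13. That shortest class held 34 of the 48 tested histone genes, whose median was 0.61 and of which 6 rose, against 11.6% of all its genes. With offsets that remove the trend with length, the median of the family was 0.34, and Hist1h3c, Hist3h2ba and Hist1h2bm were past the threshold while the other 5 were not.

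**Figure D4:**
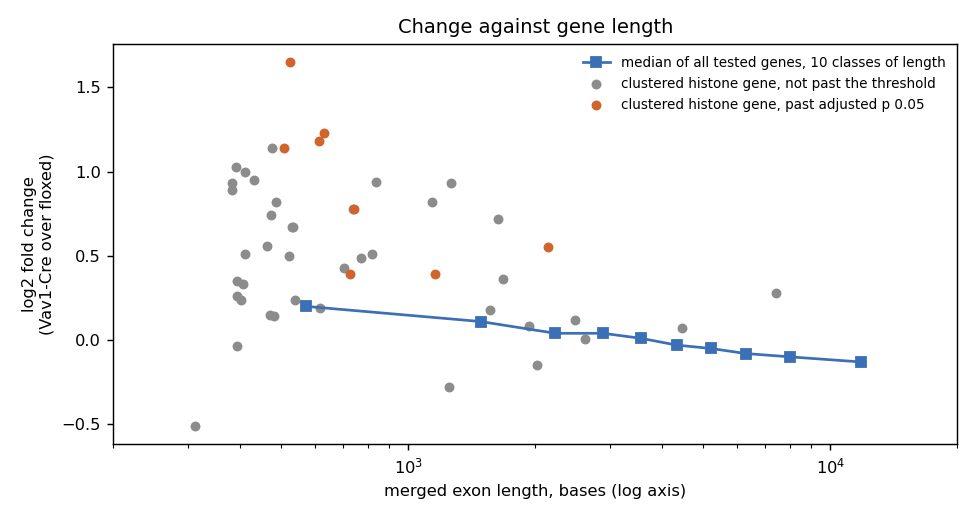
The log2 fold change (Vav1-Cre over floxed) of each tested clustered histone gene against its merged exon length on a log axis, with squares for the median of all tested genes in each of 10 classes of length, placed at the median length of the class. The line of squares falls from 0.20 to -0.13, and most histone genes under 1041 bases lie above it.

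Small RNAs without a poly(A) tail overlapped between the groups. Summed over small nuclear, nucleolar and related RNAs, they were at 99.7 to 109 CPM in floxed and 97.1 to 115 CPM in Vav1-Cre libraries. Of 19 listed RNAs of this kind, 8 were at 0 in all libraries and only 2 were tested. Together the 19 summed to only 6.2 to 6.9 CPM in floxed and 5.4 to 7.4 CPM in Vav1-Cre libraries. Both tested ones missed the threshold, Rn7sk at an edgeR adjusted p of 0.355 and Rnu73b at 0.216. The sources used here do not say whether poly(A) RNA was selected.

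Of 20 listed genes that act on histone messenger RNA, 3 rose and 1 fell, against 10.1% and 7.89% of all tested genes, and the median log2 fold change was 0.05. These shares were near those of all genes. Slbp, which encodes the stem-loop binding protein, was at 141 to 156 CPM in floxed and 164 to 190 CPM in Vav1-Cre libraries and rose by 0.28 ± 0.08 (SE; edgeR adjusted p = 0.0271). Ccne1, the gene for cyclin E, whose kinase acts on the histone gene activator NPAT, was at 14.0 to 17.0 and 23.1 to 33.9 CPM and rose by 0.99 ± 0.15 (adjusted p = 0.00149). Ncbp1, a subunit of the cap-binding complex, rose by 0.25 ± 0.08 (adjusted p = 0.0499). Lsm11, a subunit of the U7 particle, was at 19.1 to 20.3 and 13.7 to 15.4 CPM and fell by 0.46 on the log2 scale (adjusted p = 0.0167).

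Histone chaperones gave 5 genes that rose and 3 that fell of 24, against 10.1% and 7.89% of all tested genes, with a median of 0.09. Asf1b, a chaperone of H3 and H4 in cycling cells, went from 47.7 to 52.6 CPM in floxed to 87.6 to 120 CPM in Vav1-Cre libraries, a log2 fold change of 1.02 ± 0.10 (edgeR adjusted p = 0.000156). Nasp, another H3 and H4 chaperone, rose by 0.42 ± 0.08 (adjusted p = 0.00347), and Anp32e, which removes H2A.Z from chromatin, by 0.66 ± 0.11 (adjusted p = 0.00191). Hjurp, which deposits the centromeric H3 variant, fell by 0.43 on the log2 scale (adjusted p = 0.00328).

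Replacement histones are variants most of which are not tied to S phase in the way the clustered genes are, though this need not hold for each one. Of 11 listed, 3 rose and 2 fell, against 10.1% and 7.89% of all tested genes. H2afx, the gene of the H2A variant phosphorylated at DNA breaks, was at 339 to 384 CPM in floxed and 472 to 544 CPM in Vav1-Cre libraries (0.52 ± 0.08, edgeR adjusted p = 0.00151). Cenpa, the centromeric H3 variant, rose by 0.43 ± 0.09 (adjusted p = 0.00818), and H2afz by 0.31 ± 0.08 (adjusted p = 0.0220). H2afy2, a macroH2A gene, fell by 1.19 on the log2 scale (adjusted p = 0.00532), and H1fx, a linker variant, by 0.45 (adjusted p = 0.0457). The other 6 did not pass, with log2 differences of 0.20 for H3f3a, 0.23 for H2afv, 0.13 for H1f0, 0.14 for H3f3b, -0.09 for H2afy and 0.08 for H2afj. Per length, their mean levels over all libraries ran from 2.09 FPKM for H2afy2 to 672 FPKM for H3f3b.

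Genes of the cell cycle were set beside the family because histone synthesis is tied to S phase. Of 40 S phase genes 16 rose, with a median log2 fold change of 0.23, and of 26 G2 and M phase genes 15 rose, with a median of 0.28. In both lists 0 genes fell, while 10.1% of all tested genes rose and 7.89% fell. Summed S phase levels were 4905 to 5085 CPM in floxed and 5619 to 6391 CPM in Vav1-Cre libraries. Among them Rrm2, which makes deoxynucleotides, rose by 0.78 ± 0.10 (edgeR adjusted p = 0.000625), Ccna2, cyclin A, by 0.64 ± 0.09 (adjusted p = 0.000613) and E2f2 by 0.88 ± 0.12 (adjusted p = 0.00109). The histone list had 8 of 48 called and a median of 0.51, and the median SE of its log2 fold changes was 0.34 (0.09 to 1.01), against 0.09 (0.07 to 0.17) for the S phase list.

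**Figure D5:**
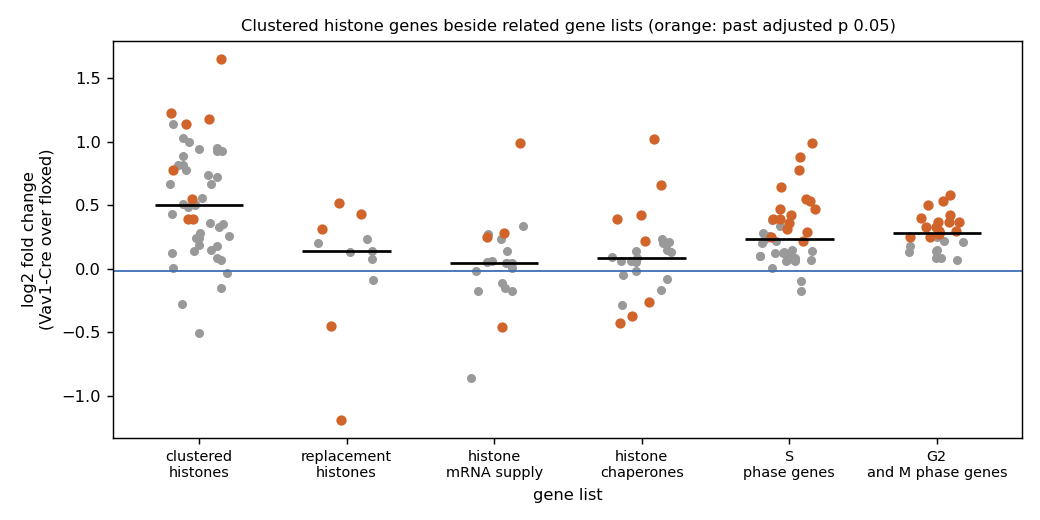
The log2 fold change (Vav1-Cre over floxed) of each tested gene in the clustered histone family and 5 related lists, with genes past an adjusted p of 0.05 in orange, a black bar at each list's median and a line at the median of all tested genes (-0.02). Medians run from 0.05 for histone mRNA supply to 0.51 for clustered histones.

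Markers of some other blood cells differed between the groups, and their part in the histone differences was not tested. For comparison with the counts below, 10.1% of all tested genes rose and 7.89% fell. B cell markers rose for 9 of 16 genes, with sums of 2150 to 5983 CPM in floxed and 20110 to 35710 CPM in Vav1-Cre libraries. Plasma cell markers rose for 7 of 10, with sums of 315 to 890 and 2083 to 4705 CPM. Macrophage markers rose for 6 of 11, with sums of 292 to 606 and 1326 to 2807 CPM. Erythroid markers rose for 4 of 14 and fell for 1, with sums of 1546 to 1840 and 2405 to 3723 CPM. T and NK cell markers rose for 6 of 12 and fell for 1, with overlapping sums of 238 to 240 and 187 to 249 CPM. Neutrophil markers rose for 0 of 12 and fell for 0, with a median log2 fold change of 0.01. Their sums of 19000 to 31620 and 14220 to 37210 CPM overlapped. No marker of these lists was at 0 in all libraries. Immunoglobulin genes took 0.293% to 1.18% of counts in floxed and 4.45% to 7.95% in Vav1-Cre libraries. With them removed before scaling, the same 8 histone genes passed the threshold. That check bears on scaling only, since histone reads from every kind of cell stayed in the counts.

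Scaling by raw totals ended the calls of Hist1h1b, Hist1h2bc, Hist1h4i and Hist3h2a, and upper-quartile scaling those of Hist1h2bc and Hist3h2a. With the robust option off, Hist1h2bb, Hist1h2bc and Hist3h2a were lost. Leaving out single libraries also changed which histone genes passed. Hist1h3c and Hist3h2ba passed in all 6 such fits. Hist1h2bm was lost without floxed replicate 1 or Vav1-Cre replicate 1. Hist1h4i was lost without floxed replicate 2, Vav1-Cre replicate 1 or Vav1-Cre replicate 2, and Hist1h1b without these or floxed replicate 3. Hist1h2bb and Hist1h2bc were lost without floxed replicate 1 or 2 or Vav1-Cre replicate 1 or 2. Hist3h2a passed in 1 of the 6 fits, that without floxed replicate 3. The number of members that rose was between 2, without Vav1-Cre replicate 1, and 9, without floxed replicate 3. It was 3 without floxed replicate 2, 3 without Vav1-Cre replicate 2, 5 without floxed replicate 1 and 8 without Vav1-Cre replicate 3.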

How the data were processed

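The authors deposited, per the file headers, whole-number read counts and FPKM values per Ensembl gene for 6 libraries. Per the labels' protocols, RNA was taken with TRIzol and 1 µg of it went into an Illumina TruSeq RNA kit. The submitters' processing notes name Bowtie and mm8. The sources used here do not give the counting tool, the strand setting or the treatment of reads with several matches. Symbols, lengths and coordinates come from GENCODE M21 (GRCm38), to which 54495 identifiers matched and 37 did not, and the gene lengths implied by the deposited FPKM values equalled its exon lengths within 0.01% for at least 94.4% of genes with over 200 counts. Those FPKM values already carry median-ratio scaling between libraries.

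The test was edgeR's quasi-likelihood F-test (edgeR 4.0.16, R 4.3.3) on the deposited counts after TMM scaling, filterByExpr (minimum count 10, here 0.587 CPM in at least 3 libraries), the robust option, Benjamini-Hochberg adjustment over all 14608 tested genes and a threshold of 0.05. The SE is the log2 fold change divided by the root of F. Of the 48 members tested, 37 were over the filter value in all 6 libraries, 8 were over it in all 3 Vav1-Cre but fewer floxed libraries, and 2 the reverse, so counts and medians over tested members describe them and do not stand for all 67. The floor of 3 counts covers counting error only, while the SD and SE also hold the spread between libraries. Shared 50-base words were counted over all annotated transcripts. All 8 genes that rose shared under 50% of theirs. Position groups were split at gaps over 100 kb.

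Alternatives were other scalings, filters, DESeq2 1.42.0, limma 3.58.1 (voom, and log2 of FPKM plus 1 or 0.1), length offsets and leaving out each library. Scripts were tested on simulated data. Named genes were Phf6, the 3 members with the highest mean CPM in each type, members past the threshold, replacement histones in full and up to 4 genes with the smallest p per other list. Members outside this rule were chosen after their values were seen. The members, lists and tests were chosen with earlier results of these data known.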

Additional observations from a re-analysis of the deposited data

How the results depend on the processing

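None of the members fell under any of the 19 alternatives. The number that rose was 8, and it was 4 with raw library totals, 5 with the robust option off, 3 with length offsets and 2 with log2 of FPKM plus 1 without a filter, and the cause was not tested. Leaving out 1 library gave 2 to 9. Over all genes, 1469 rose and 1152 fell with TMM, 1215 and 1430 with upper-quartile scaling, and 901 and 3153 with raw totals, which shifted the median of all genes to -0.19. The number that rose was 967 with FPKM plus 0.1 and 435 with FPKM plus 1 without a filter, and the number that fell was 586 with FPKM plus 1, 565 with FPKM plus 0.1 and 225 without the filter. Leaving out 1 library gave 682 to 1882 that rose and 507 to 1413 that fell. With raw totals the ratios of summed levels were 1.15 for all members, 1.04 for H1, 1.53 for H3 and 1.18 for H4.

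The median of the members was between 0.34 and 0.60 in every alternative. Small differences that did not pass turned negative on the log2 scale in some alternatives. With raw totals 6 members did so, Hist1h1e (-0.080), Hist1h2be (-0.11), Hist2h2be (-0.16), Hist1h2ao (-0.023), Hist1h2ac (-0.048) and Hist1h4h (-0.018), and among replacement histones H3f3b (-0.024), H2afj (-0.092) and H1f0 (-0.044). With length offsets 4 members did so, Hist1h2ao (-0.074), Hist1h2bg (-0.00053), Hist2h2be (-0.017) and Hist1h4h (-0.075). Leaving out 1 library gave -0.11 to 0.27 for Hist1h1e, -0.050 to 0.25 for Hist1h2ao, -0.0070 to 0.29 for Hist1h2ac, -0.12 to 0.43 for Hist1h4h and -0.014 to 0.13 for H2afj. Hist1h3c was past the threshold in 19 of 19 alternatives, Hist3h2ba in 18 of 19 and Hist1h2bm in 16 of 18. No paired analysis was possible because the labels give no replicate numbers that the groups share, and the numbers used here only name libraries in accession order. Depth limited most members: 4 had over 200 counts in each library.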

Other observations

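Some low members of chromosome 13 differed widely between replicates, a pattern chosen after the values were seen and not tested. Hist1h2bk had 50, 18 and 1 counts in floxed and 66, 36 and 22 counts in Vav1-Cre libraries. Its back-to-back neighbour Hist1h2ah had 14, 11 and 21 counts in floxed and 11, 12 and 24 counts in Vav1-Cre libraries. Hist1h2bn had 15, 18 and 2 counts in floxed and 27, 16 and 10 in Vav1-Cre libraries, and its neighbour Hist1h2ak had 25, 31 and 47 and then 33, 39 and 28. Hist1h2bl had 14, 14 and 4 counts in floxed and 24, 19 and 7 in Vav1-Cre libraries, and its neighbour Hist1h2ai had 15, 20 and 38 and then 21, 17 and 20. Among floxed libraries, replicate 3 had the fewest counts of all 3 H2B genes and the most of all 3 H2A genes. Among Vav1-Cre libraries the H2A genes did not share such an order, since replicate 3 was lowest for Hist1h2ak and neither lowest nor highest for Hist1h2ai. Between 57.0% and 92.1% of the 50-base words of these 6 genes occur in other annotated genes, so their separate values are uncertain.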
